A study of Drosophila melanogaster with 6 samples.

Results

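The genes described here encode RNA polymerase, the general transcription factors and the Mediator complex of Drosophila melanogaster. They were chosen by symbol from the rows of the deposited gene table. The symbol had to begin with MED, Taf, Rpb or Polr and a digit, or with TfII, TFII or RpI. The rule found 61 of the 11491 genes. No expression value entered it, but the group was proposed with earlier results of these data known. The 61 genes comprised 24 Mediator subunits, 12 TAFs of TFIID, 6 subunits of RNA polymerase II, 5 subunits shared between polymerases, 3 subunits of RNA polymerase I, 1 of RNA polymerase III, 3 genes of TFIIA, 2 each of TFIIE and TFIIF, 1 each of TFIIB and TFIIS, and 1 testis TAF. All 61 had a position in the Ensembl annotation of the dm6 assembly. By chromosome arm, 12 lay on 2L, 8 on 2R, 15 on 3L, 20 on 3R, 1 on chromosome 4 and 5 on X.

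RNA polymerase II transcribes messenger RNA genes, polymerase I the large ribosomal RNAs, and polymerase III the transfer RNAs and other small RNAs. At a promoter, TFIID, which is made of the TATA-binding protein and TAFs, and TFIIA and TFIIB recruit polymerase II together with TFIIF, and TFIIE and TFIIH complete the complex that opens the DNA. Mediator links activators bound to DNA with this complex. The testis is known for its own versions of the machinery: spermatocytes use testis TAFs, which stand in for TFIID subunits, to switch on many genes of sperm formation.

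The study asked what the loss of Zeus, a young testis gene copied by retroposition from Caf40 (Rcd-1, a subunit of the CCR4-NOT complex), does to testis transcripts. Poly(A) RNA of whole testes from adult males was sequenced in 3 Zeus KO libraries and 3 libraries of the control injection line, which the sample labels call wild type. Both groups carry strain BDSC #25710 in the labels, a stock with the phiC31 integrase under the nos promoter and the alleles y[1], sc[1], v[1] and sev[21] on the X chromosome and the attP2 landing site. The Zeus KO lines carry small CRISPR-Cas9 frameshift deletions in the coding sequence of Zeus, and whether the 3 Zeus KO libraries came from 1 line or from several is not stated. Testes were kept in PBS before RNA extraction, and the age of the males is not given in the sources used here.

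The deposited table gives the mean of each group in normalized reads, that is, reads divided by a size factor for each library. Because each mean is printed to many digits, the reads of the single libraries could be solved from it, and all 61 genes had exactly 1 solution in both groups. The solved libraries carry no replicate number, so they are named here by the rank of their size factor within the group, with rank 1 for the lowest and rank 3 for the highest. Groups were compared with limma on log2(normalized reads + 1) over 11164 genes, with Benjamini-Hochberg adjustment over all of them. A gene was called when its adjusted p was under 0.05 and its fold at least 1.5. These p-values measure the spread between the libraries, and in whole testes fewer cells of a type and less RNA per cell cannot be told apart.

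The libraries held between 12533272 and 18846182 sequenced reads. Zeus (Rcd-1r) had 319 to 380 normalized reads in the control libraries and 269 to 328 in the Zeus KO libraries (log2 fold change -0.26 ± 0.13 SE, adjusted p = 0.314 in limma), and a frameshift need not remove the transcript. The testis was identified by its germline markers, with 19 of 21 in the table and a summed group mean of 167323 in control and 147789 in Zeus KO, and none of the 11 tested was called. All 6 cyst cell markers were in the table, with sums of 2287 and 2147 and none called. Markers of tissues near the testis differed more: the sum of 14 of 14 accessory gland markers was 167038 in control and 106896 in Zeus KO, that of 11 of 13 gut markers 23048 and 11437, that of 6 of 10 fat body markers 2627 and 1425, and that of 12 of 13 muscle markers 17187 and 22442. Of the 8, 11, 6 and 12 tested in these lists, 0, 2, 1 and 2 were called higher in Zeus KO and 2, 8, 2 and 1 lower. The 8 tested accessory gland markers summed to 31589 to 40197 per control library and 20677 to 30417 per Zeus KO library. The rest of that list could not be solved and was not tested. The fat body sums were mostly those of 1 gene, apolpp, with 2472 in control and 1204 in Zeus KO. Lsp2 of the same list was higher in Zeus KO, at 77.3 and 173. No marker in the table was at 0 in both groups. The part of these tissues in the results below was not tested.

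Of the 6 libraries, 2 stood apart from the rest by transcript length, as the plot of library deviations against exon length shows. In the control library of size factor rank 2, the deviation of the 61 genes from their mean over 6 libraries fell with exon length (Pearson's r = -0.75 across the 61 genes), and so it did in the Zeus KO library of rank 3 (r = -0.65). It rose with length in the Zeus KO libraries of rank 1 (r = 0.60) and rank 2 (r = 0.62) and in the control library of rank 3 (r = 0.50), and the control library of rank 1 had r = 0.084. The same signs held across 10877 genes of the table with a mean of at least 10, with values from -0.47 to 0.35, except in the control library of rank 1 at -0.15. These are descriptions across genes, which share the libraries and are not replicates. In the control library of rank 2 the 21 shortest of the 61 genes lay at a median of 0.15 above their mean on the log2 scale, and the 20 longest at -0.24.

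**Figure D1:**
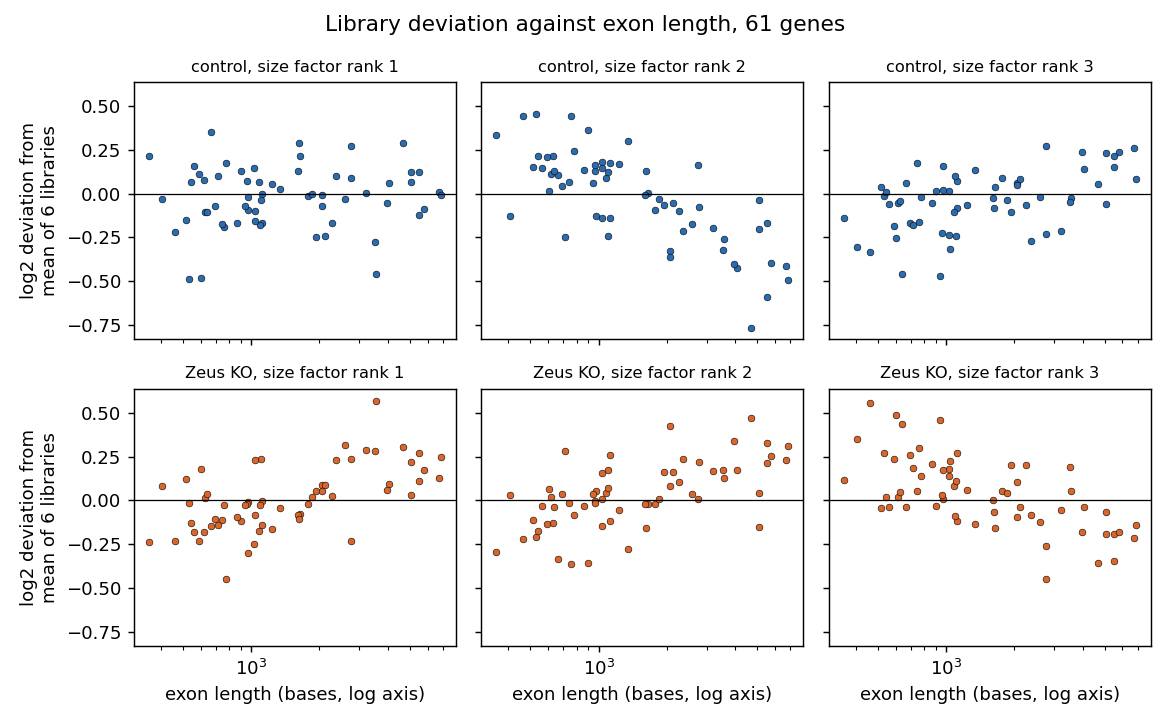
Log2 deviation of each of the 61 genes from its mean over the 6 libraries (vertical axis) against exon length in bases (log axis), 1 panel per library and 1 point per gene. Points slope down in the control library of size factor rank 2 (r = -0.75) and the Zeus KO library of rank 3 (r = -0.65) and slope up in 3 of the other 4.

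None of the 61 genes was called, and none passed the adjusted p alone. Over all genes tested, 2.16% were called higher in Zeus KO and 1.9% lower, and 2.68% and 2.36% passed the adjusted p alone in these directions. The lowest adjusted p among the 61 was 0.101, for RpIII128. The log2 fold changes ran from -0.34 for Taf10 to 0.50 for RpI135, with 34 above 0 and 27 below, and a median of 0.046 against 0.0031 over all genes. Of the 61, 39 (63.9%) had a 95% interval that lay wholly inside a 1.5-fold change in either direction, against 62.2% of all genes, so for the rest a change of that size lay within the interval. Before adjustment, 8 genes had a p under 0.05 (13.1%, against 18.9% of all genes), 6 of them higher and 2 lower in Zeus KO.

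The 3 Zeus KO libraries lay wholly above the 3 control libraries in 10 of the 61 genes (16.4%) and wholly below them in 4 (6.56%). The shares over all genes tested were 11.8% and 11.6%. The 10 were MED19, MED20, MED22, MED30, RpI135, RpIII128, Rpb10, Taf6, Taf7 and TfIIFalpha, and the 4 were MED7, Taf8, Taf10 and TfIIA-L. Without both libraries that sloped down with length, again none of the 61 genes passed the adjusted p, and the median log2 fold change was 0.060.

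**Figure D2:**
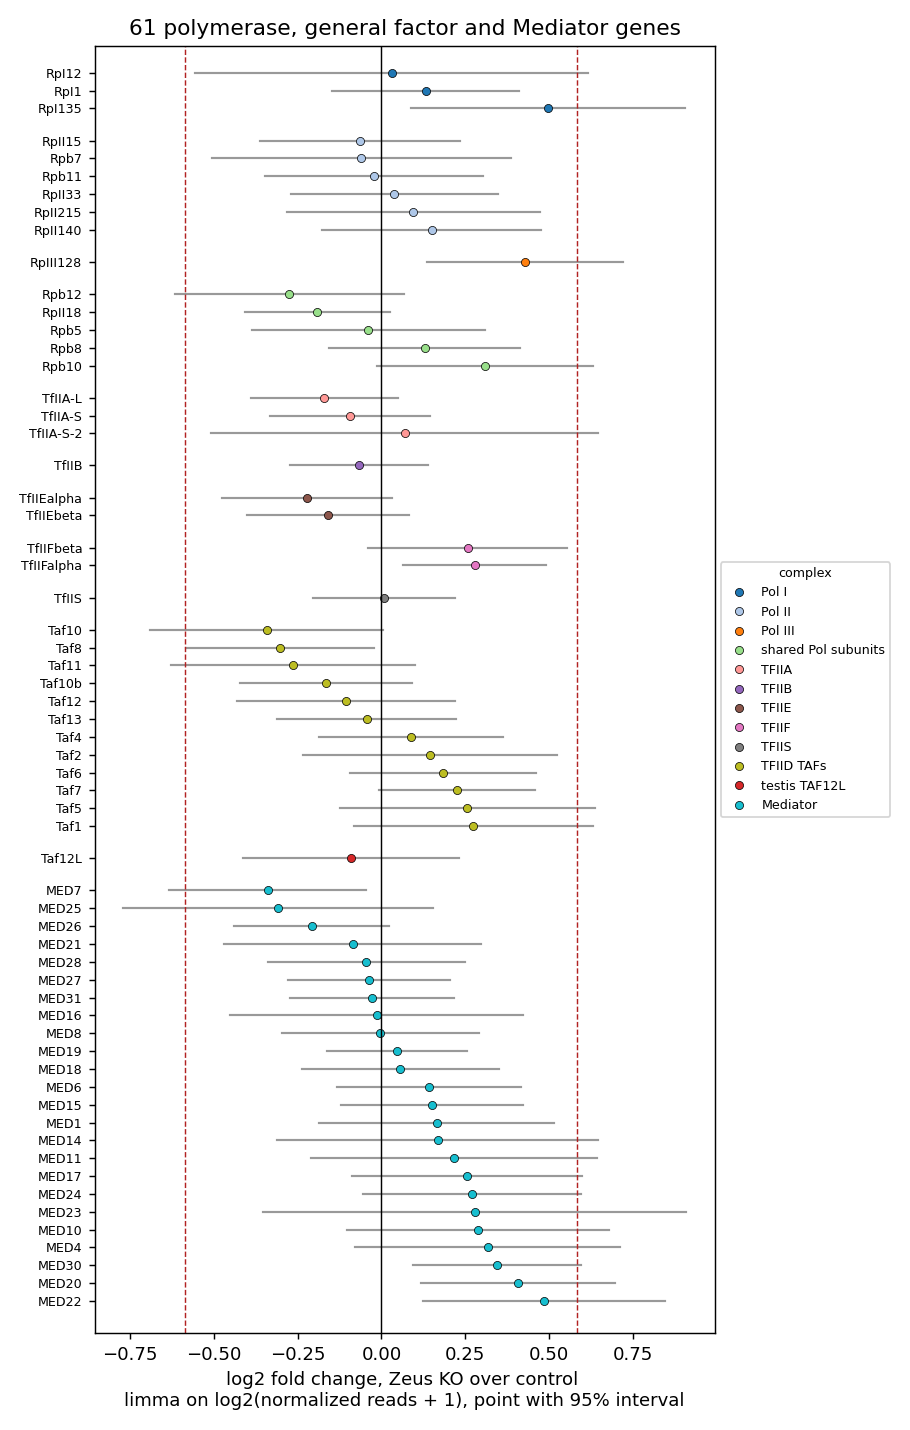
Log2 fold change from control to Zeus KO and its 95% interval from limma for each of the 61 genes, grouped by complex and sorted within it. The solid line marks no change and the dashed lines a 1.5-fold change; all 61 points lie between the dashed lines, and 39 intervals lie wholly between them.

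Levels of the genes differed far more between genes than between groups, as the plot of levels per exon length shows. Per kb of exon, the authors' control mean ran from 18.3 normalized reads for MED23 to 3600 for RpII18. Next to RpII18 came Rpb12 at 1133, TfIIA-S at 1006, the testis TAF Taf12L at 979, MED31 at 845 and TfIIB at 807. At the low end, above MED23, were MED16 at 28.6, RpI135 at 28.9, MED25 at 33.6 and Taf5 at 43.6. The length slopes of the libraries touch such levels, and no test was made between genes.

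**Figure D3:**
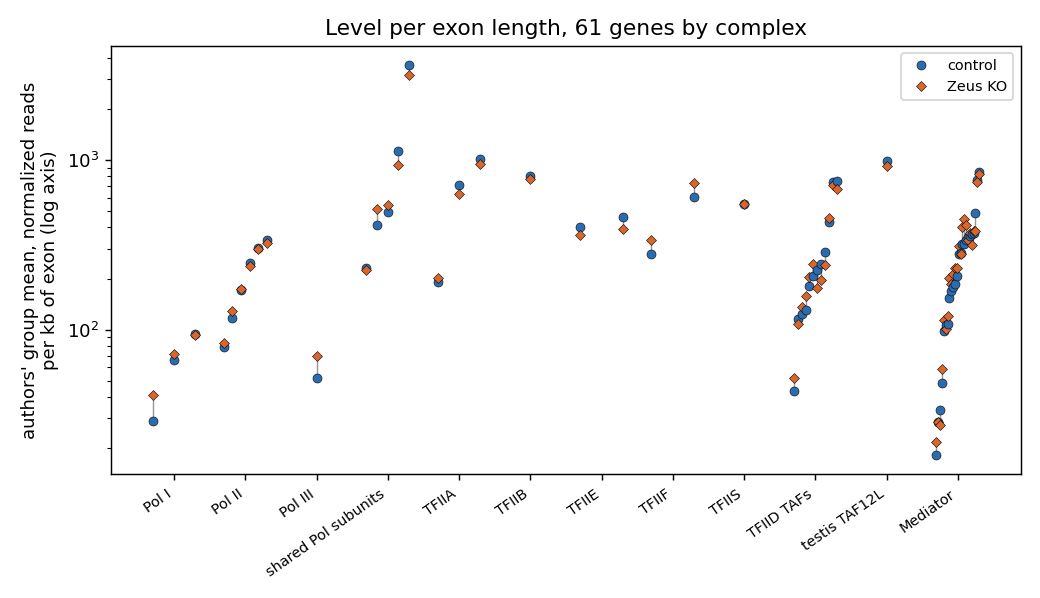
The authors' group mean in normalized reads per kb of exon (log axis) for each of the 61 genes by complex, with circles for control, diamonds for Zeus KO and a line joining the 2 values of a gene. Genes of 1 complex span wide ranges, as in Mediator from MED23 (18.3 in control) to MED31 (845), while the pair of values of each gene lie close together.

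The core of RNA polymerase II did not differ beyond the spread of the libraries, and the 95% intervals of all 6 of its specific subunits lay inside 1.5-fold. RpII215, the largest subunit, which carries the catalytic site and the C-terminal repeats, lies on chromosome X from 11562800 to 11570326 on the minus strand of dm6. It had 541, 404 and 644 normalized reads in the control libraries of rank 1, 2 and 3, and 587, 632 and 463 in those of Zeus KO. The low value of each group was in the library that sloped down with length, and the groups overlapped (log2 fold change 0.095 ± 0.17 SE, 95% interval -0.28 to 0.47). RpII140, the second largest subunit, followed the same order of libraries, at 513, 367 and 544 in control and 525, 555 and 480 in Zeus KO (0.15 ± 0.15). RpII15, a small subunit that acts in transcript proofreading, had the lowest log2 fold change of the 6, -0.063 ± 0.14. Without the control library of rank 2 the differences of RpII215 and RpII140 were -0.086 and -0.025, below 0, and that of RpII15 was 0.011, above it.

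Among the subunits shared by the polymerases, 2 lay above and 3 below the control. RpII18, found in all 3 polymerases, was the most abundant of the 61 genes per kb, with 1904, 2107 and 1831 normalized reads in control and 1667, 1609 and 1841 in Zeus KO. Its groups overlapped only through the Zeus KO library of rank 3 (log2 fold change -0.19 ± 0.099, adjusted p = 0.325 in limma). Rpb10 and Rpb12, both also small subunits of all 3 enzymes, stood at the opposite ends. Rpb10 had 183, 171 and 151 normalized reads in control and 198, 191 and 239 in Zeus KO, which did not overlap (0.31 ± 0.15, adjusted p = 0.283). Rpb12 had 419, 454 and 327 in control and 306, 293 and 391 in Zeus KO, which did (-0.28 ± 0.16, adjusted p = 0.372). The difference of Rpb12 lay between -0.41 and -0.18 with single libraries left out, and with a trend on exon length removed from each library it was -0.058 (adjusted p = 0.771). Of the exon bases of Rpb10, 15.3% also belong to CG13630 on the opposite strand, and whether reads were counted by strand is not stated.

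The second largest subunits of polymerases I and III had the highest log2 fold changes among the polymerase genes. RpI135 (2L, 404285 to 407969, plus strand), which forms the active centre of polymerase I together with RpI1, had 88.2, 101 and 119 normalized reads in control and 181, 133 and 126 in Zeus KO. The highest control library and the lowest Zeus KO library were close, and the Zeus KO library of rank 1 stood well above the other 2 (log2 fold change 0.50 ± 0.19, 95% interval 0.087 to 0.91, adjusted p = 0.178). Without that library the difference was 0.34. RpI1, the largest subunit of polymerase I, had 365, 303 and 335 in control and 407, 360 and 333 in Zeus KO, which overlapped (0.13 ± 0.13). RpI12, a small subunit of the same enzyme, was the least precise of the 3, with 34.2, 66.8 and 48.0 normalized reads in control and 47.8, 41.8 and 58.6 in Zeus KO (0.031 ± 0.27), and single left-out libraries moved its difference between -0.21 and 0.27.

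RpIII128 (2R, 12039041 to 12042623, plus strand), the second largest subunit of polymerase III, had 175, 169 and 205 normalized reads in the control libraries and 258, 239 and 242 in the Zeus KO libraries. All 3 Zeus KO libraries lay above all 3 control libraries, and the spread within Zeus KO was small. The log2 fold change was 0.43 ± 0.13 SE (95% interval 0.14 to 0.72), and the adjusted p of 0.101 in limma missed the threshold. Leaving out single libraries moved the difference between 0.38 and 0.51, and the lowest adjusted p, 0.0586, came without the control library of rank 3.

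**Figure D4:**
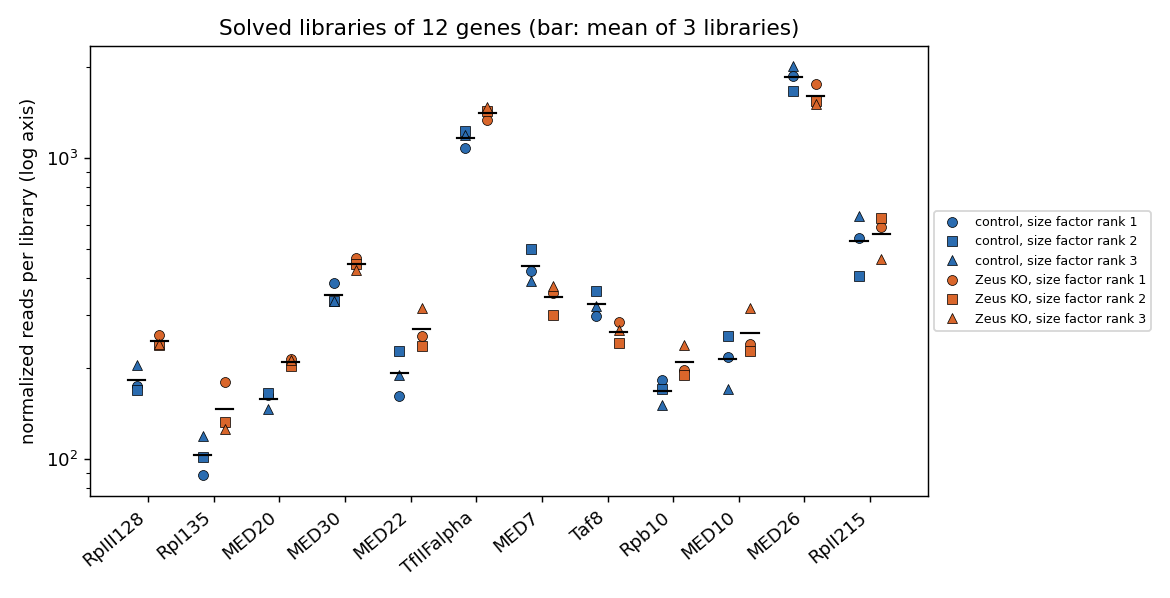
Normalized reads (log axis) in each of the 6 solved libraries for 12 genes, with the mean of 3 libraries as a bar, blue for control, orange for Zeus KO and a symbol for each size factor rank. RpIII128, MED20 and MED30 show groups that lie apart, while RpII215 shows the overlap seen in the polymerase II core; the 12 genes were chosen after their values were seen.

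Of the general factors other than TAFs, 4 lay above and 5 below the control, and 8 of the 9 intervals lay inside 1.5-fold. TFIIF, which binds polymerase II and escorts it to the promoter, was the factor on the higher side. TfIIFalpha (3R, 6380467 to 6382604, plus strand) had 1079, 1226 and 1195 normalized reads in control and 1333, 1434 and 1475 in Zeus KO, with no overlap (log2 fold change 0.28 ± 0.098, 95% interval 0.064 to 0.49, adjusted p = 0.150 in limma). Its partner TfIIFbeta had 303, 309 and 322 in control and 308, 407 and 411 in Zeus KO, where the library of rank 1 fell among the controls (0.26 ± 0.14, adjusted p = 0.336). Of the exon bases of TfIIFbeta, 12.1% are shared with Cap-H2 on the opposite strand.

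Both subunits of TFIIE, which brings TFIIH to the complex, were on the lower side. TfIIEalpha had 841, 752 and 649 normalized reads in control and 639, 616 and 657 in Zeus KO (log2 fold change -0.22 ± 0.12, adjusted p = 0.330). TfIIEbeta had 426, 483 and 449 in control and 427, 394 and 393 in Zeus KO (-0.16 ± 0.11, adjusted p = 0.478). Both overlapped, and both intervals lay inside 1.5-fold, so the data allow changes smaller than that.

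TfIIB, which positions polymerase II at the start site, was among the most precise of the 61 genes, with 1385, 1257 and 1243 normalized reads in control and 1195, 1248 and 1264 in Zeus KO (log2 fold change -0.066 ± 0.094). With TBC1D16 on the opposite strand it shares 26.8% of its exon bases. TfIIS, which helps stalled polymerase II to resume, had 970, 917 and 1041 in control and 965, 962 and 1015 in Zeus KO (0.0082 ± 0.097, and -0.036 to 0.056 with single libraries left out). Neither gene separated the groups, and both intervals lay inside 1.5-fold.

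TFIIA, which stabilizes the TATA-binding protein on DNA, is encoded here by a large subunit gene and a pair of small subunit genes. TfIIA-L had 1277, 1104 and 1129 normalized reads in control and 1043, 1085 and 986 in Zeus KO, which did not overlap (log2 fold change -0.17 ± 0.10, adjusted p = 0.394). TfIIA-S had 634, 648 and 579 in control and 530, 607 and 609 in Zeus KO (-0.093 ± 0.11). Its paralog TfIIA-S-2, on chromosome X, had 75.0, 119 and 69.3 in control and 74.4, 75.0 and 129 in Zeus KO. The high value of each group of TfIIA-S-2 was in the library that sloped down with length, and its exons span 462 bases. Its difference had the largest standard error of the 9 factors (0.070 ± 0.26), and it lay between -0.19 and 0.31 with single libraries left out. Per kb, the control mean was 1006 for TfIIA-S and 190 for TfIIA-S-2.

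The 12 TAFs of TFIID that the symbol rule matches split evenly, with 6 above and 6 below the control. Their median log2 fold change was 0.022 (-0.027 to 0.055 with single libraries left out), and 8 of 12 intervals lay inside 1.5-fold. Taf1, the largest subunit and the scaffold of TFIID, had 971, 693 and 1035 normalized reads in control and 1156, 1208 and 883 in Zeus KO, which overlapped (0.27 ± 0.16, adjusted p = 0.397). Its difference was 0.097 without the control library of rank 2, 0.41 without the Zeus KO library of rank 3 and 0.16 with the length trend removed. Taf4, the TAF with the highest mean, had 2235, 2166 and 2701 in control and 2626, 2815 and 2127 in Zeus KO (0.089 ± 0.12). The TAFs above the control were Taf1, Taf2, Taf4, Taf5, Taf6 and Taf7, with exons of 2056 to 6876 bases, and those below were Taf8, Taf10, Taf10b, Taf11, Taf12 and Taf13, with exons of 560 to 1341 bases. The split of these 12 TAFs by direction was thus also a split by length. With the length trend removed 10 of the 12 kept their side, while Taf4 (-0.011) and Taf13 (0.087) changed it. Of the TFIID subunits that the symbol rule does not match, e(y)1 (-0.16 ± 0.13) and bip2 (-0.068 ± 0.11) lay below the control. The TATA-binding protein gene Tbp lay above it (0.22 ± 0.18). The exons of bip2 span 4514 bases, so with it the split by length does not hold.

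Taf10 and Taf10b encode 2 versions of the same TFIID subunit and are neighbours on 2L, Taf10b from 2767286 to 2767845 on the minus strand and Taf10 from 2767890 to 2768612 on the plus strand. Taf10 had 167, 141 and 136 normalized reads in control and 118, 104 and 128 in Zeus KO. The groups did not overlap, and its log2 fold change of -0.34 ± 0.16 was the lowest of the 61 (95% interval -0.69 to 0.0041, adjusted p = 0.270). Taf10b had 444, 440 and 382 in control and 351, 389 and 387 in Zeus KO, with overlap (-0.17 ± 0.12, adjusted p = 0.490). Per kb, Taf10b was the more abundant of the pair in control, at 753 against 223. Taf8, which binds Taf10 within TFIID and is named here after its values were seen, had 299, 361 and 322 in control and 284, 242 and 267 in Zeus KO (-0.30 ± 0.13, adjusted p = 0.230).

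Taf12L, also known as rye, is the testis counterpart of Taf12. It had 603, 645 and 489 normalized reads in control and 474, 507 and 655 in Zeus KO, which overlapped (log2 fold change -0.090 ± 0.15, 95% interval -0.41 to 0.23). The side of this difference was not settled: it was 0.0031 without the Zeus KO library of rank 1, -0.23 without that of rank 3 and 0.048 with the length trend removed. Taf12 had 142, 154 and 131 in control and 122, 132 and 143 in Zeus KO (-0.11 ± 0.15). Per kb, the control mean was 979 for Taf12L and 115 for Taf12, and in Zeus KO it was 923 and 107. Of the other testis TAFs, which the symbol rule does not match, none was called or passed the adjusted p: the log2 fold changes were -0.076 for nht, -0.031 for can, 0.12 for sa and -0.32 for mia. The mia values, 725, 614 and 695 in control and 603, 525 and 502 in Zeus KO, did not overlap (adjusted p = 0.165).

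Mediator, the largest group, had 15 of 24 genes above the control with a median log2 fold change of 0.15, and none was called or passed the adjusted p. Of all 11164 genes, 5641 lay above the control, as did 3 of 3 genes of polymerase I and 2 of 2 of TFIIF. The median of Mediator was 0.071 without the control library of rank 2 and 0.083 without the Zeus KO library of rank 2. It was 0.096 without the Zeus KO library of rank 1 and 0.093 with the length trend removed. Of its intervals, 12 of 24 lay inside 1.5-fold. The counts per module rest on the grouping used here, with MED27, MED28 and MED30 placed in the tail. The head module, which contacts polymerase II, had 6 of 7 genes above the control with a median of 0.22. The middle module had 4 of 8 and a median of 0.0090, the tail, where many activators bind, 4 of 8 and 0.068, and the scaffold subunit MED14 had 0.17 ± 0.22.

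MED22, a head subunit, had the highest log2 fold change of Mediator. It lies on chromosome X from 928139 to 928860 on the plus strand, and 10.5% of its exon bases are shared with CG3708 on the opposite strand. It had 162, 229 and 190 normalized reads in control and 256, 237 and 318 in Zeus KO. The highest control and the lowest Zeus KO library nearly touched (log2 fold change 0.48 ± 0.16, 95% interval 0.12 to 0.85, adjusted p = 0.138 in limma). Left-out libraries moved this difference between 0.36 and 0.61.

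MED20 of the head and MED30, grouped here with the tail, were the other Mediator genes with a lower bound above 0 and are named after their values were seen. MED20 had 163, 166 and 146 normalized reads in control and 214, 204 and 213 in Zeus KO (log2 fold change 0.41 ± 0.13, adjusted p = 0.116). MED30 had 384, 334 and 334 in control and 464, 446 and 425 in Zeus KO (0.35 ± 0.11, adjusted p = 0.128). In both genes the groups lay clearly apart, with small spreads. The other head genes ran from -0.0035 ± 0.13 for MED8 to 0.26 ± 0.16 for MED17. Of the tail, which also held the least precise Mediator gene, MED23 (0.28 ± 0.29), the lowest was MED25 at -0.31 ± 0.21.

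On the lower side of Mediator were MED7 and MED26, both of the middle module. MED7 had 421, 497 and 390 normalized reads in control and 355, 301 and 376 in Zeus KO, with no overlap (log2 fold change -0.34 ± 0.14, 95% interval -0.63 to -0.045, adjusted p = 0.203). MED26, the Mediator gene with the highest mean and the only one of the 61 on chromosome 4 (778516 to 788978, minus strand), had 1870, 1674 and 2014 in control and 1754, 1549 and 1505 in Zeus KO. Its groups overlapped through the control library of rank 2 (-0.21 ± 0.11, 95% interval -0.44 to 0.022, adjusted p = 0.314).

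The difference between the groups also followed exon length. By exon length, the 21 shortest of the 61 genes (353 to 941 bases) had a median log2 fold change of -0.044, the 20 of middle length -0.032 and the 20 longest (2060 to 6876 bases) 0.16. The medians of all genes in the same length ranges were -0.13, -0.033 and 0.065, so the ordering by length was that of the whole table.

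The comparison was also repeated after a smooth trend on exon length was removed from each library, a choice made after seeing the data. The trend was removed without regard to group, so a difference between control and Zeus KO that follows length is removed as well. Which of the 2 fits lies closer to the testis was not tested. The standard error became smaller in 58 of the 61 genes. Over 11081 genes, 5.64% then passed the adjusted p higher in Zeus KO and 5.95% lower, and 2.78% and 2.64% were called. Of the 61 genes, 6 (9.84%) passed the adjusted p on the higher side and 1 (1.64%) on the lower side, and 1 was called. In both directions together 7 of the 61 passed, about the same share as the 1284 of 11081 genes. The 1 called stands beside 600 of 11081, a smaller share than that of the table. The median log2 fold change of the 61 was 0.066, against -0.0012 over all genes. In this fit 43 of the 61 lay above 0, 19 of the 24 Mediator genes among them, and 48 of the 61 kept the side they had before.

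The 7 genes were 5 of Mediator, 1 shared polymerase subunit and TfIIFalpha. MED22 was the gene called: its corrected values were 152, 194 and 204 in control and 287, 267 and 287 in Zeus KO (log2 fold change 0.62 ± 0.13, adjusted p = 0.0024 in limma). It was the gene that passed the adjusted p under every removal of 1 library from this fit, though without the control library of rank 1 its difference of 0.49 fell short of 1.5-fold. Rpb10 had 168, 138 and 164 in control and 227, 226 and 211 in Zeus KO (0.50 ± 0.13, adjusted p = 0.0148). MED20 (0.48 ± 0.13, adjusted p = 0.0163), MED30 (0.41 ± 0.11, adjusted p = 0.0148) and MED10, a middle subunit (0.42 ± 0.12, adjusted p = 0.0272), were also higher.

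TfIIFalpha moved little with the correction, to 0.27 ± 0.079 (adjusted p = 0.0274). MED26 was the lower one, with corrected values of 1927, 1944 and 1845 in control and 1587, 1415 and 1641 in Zeus KO, which no longer overlapped (-0.30 ± 0.076, adjusted p = 0.0107). RpIII128 (0.35 ± 0.12, adjusted p = 0.0652) and RpI135 (0.42 ± 0.17, adjusted p = 0.110) did not pass in either fit. TfIIA-S changed from -0.093 to 0.040. With the correction, leaving out single libraries left between 2 and 7 of the 61 genes past the adjusted p. The number over all genes moved too, from 1284 of 11081 with all libraries kept, so both rest on the choice of libraries. For the removals that left 2 and 7, the number over all genes is not given here, and no reading of them is drawn. The share of the 61 is to be read against that of the table. Without the control library of rank 1, 4 of the 61 passed, beside 750 of all 11081 genes. Without that of rank 2, 5 of the 61 passed, beside 983 of 11081.

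**Figure D5:**
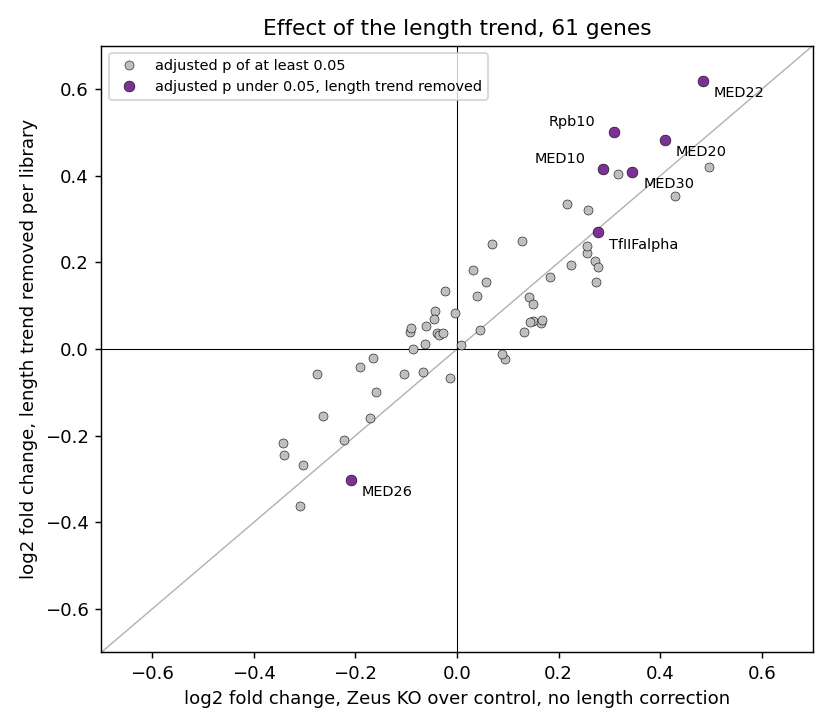
Log2 fold change from control to Zeus KO for each of the 61 genes without (horizontal axis) and with (vertical axis) removal of the length trend from each library; the grey line marks equality. The 7 labelled points passed the adjusted p after removal, 6 above 0 and MED26 below at -0.30, and none passed before.

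Other parts of the machinery, taken from lists of genes whose symbols the rule does not match, were compared only in the fit without removal of the length trend. In that fit all genes in the length range of the longest members had a median of 0.065, and those in the range of the shortest -0.13. The part of length in the values of these lists was not tested. Of 55 such genes tested, none was called or passed the adjusted p, and 7 had an unadjusted p under 0.05, against 18.9% of all genes. Of the 55, 34 lay above the control and 21 below (median log2 fold change 0.063), and of all 11164 genes 5641 lay above. TFIIH, whose helicases open the promoter, had 6 of 8 genes above the control and a median of 0.089. The 3 genes of the TATA-binding protein family had differences of -0.037 for Trf to 0.22 for Tbp. Elongation and pausing factors, which control polymerase II after initiation, had 18 of 23 genes above the control and a median of 0.11, with the highest value in Ctr9 of the Paf1 complex (0.41, adjusted p = 0.0659). Of the Mediator kinase module and ix, 2 of 5 lay above, from -0.31 for Cdk8 to 0.30 for skd. The 6 factors of polymerase III and small nuclear RNA genes had a median of 0.11 and the 4 factors of polymerase I a median of -0.17.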

How the data were processed

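RNA of 3 control and 3 Zeus KO libraries was analysed. Per the study's methods, STAR with default settings aligned the reads to dm6, featureCounts gave the reads of each gene, and DESeq2, edgeR and limma were each run on them. Tool versions, annotation release and strand setting are not given in the sources used here. The deposited signal of a gene is its mean normalized reads per group, without correction for gene length. The deposited count of sequenced reads per library comes from the authors' FastQC summary, of which 5 other columns were not used. The columns holding the authors' own fold changes, p-values and calls were not used.

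Each group mean is a sum of 3 whole numbers of reads, each times a fixed weight per library. These weights and reads were solved with Python 3.11.15, numpy 2.4.6 and numba 0.67.0 for means up to 8000, within 8 times the rounding of the printed digits. A single solution was found in both groups for 11178 genes (97.3%), and the 313 genes above the limit held 36.2% of the normalized reads and were left out. Genes with a mean of at least 1 were fitted with limma 3.58.1 (R 4.3.3, with a trend, pseudocount 1). The solving and fitting steps were tested on simulated data. Fold changes are on the log2(value + 1) scale.

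Positions and exon lengths (union of exons) came from the Ensembl annotation; 90 genes of the table had none. With other genes, 29 of the 61 share exon bases, 11 of them over 10%. The kit is not known to mark strand, so reads of overlapping genes cannot be told apart.

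The members and lists were chosen with earlier results of these data known. Genes named by rule were, per complex, those past the adjusted p, with the highest and lowest log2 fold change, the highest mean or the largest subunit, TfIIB, Taf1 and paralog pairs, 28 genes in all; others are named after their values were seen. Alternatives were 13 planned ones (pseudocount, filter on low values, quantile normalization, voom weights, no trend, each library left out) and 8 added after seeing the data (removal of the length trend by lowess per library, alone and with each library left out, and leaving out both libraries that sloped down with length).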

Additional observations from a re-analysis of the deposited data

How the results depend on the processing

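No member was called or passed the adjusted p under any of the 13 other settings listed in the processing before removal of the length trend, nor without both libraries that sloped down with length, and the lowest adjusted p of a member in limma lay between 0.0586 and 0.213 over these fits. The number of members with an interval inside 1.5-fold stayed within 1.5 times the 39 of the main fit. Quantile normalization moved the median log2 fold change of the members from 0.046 to 0.024. Leaving out single libraries, with and without the length trend, gave medians between 0.0267 and 0.12, between 0 and 1 members called and between 0 and 7 past the adjusted p. Without the Zeus KO library of size factor rank 1 the median was 0.051, and 0.069 with the length trend removed as well. With the trend removed, 4 members passed without the control library of rank 1 or the Zeus KO library of rank 1, and 5 without the control library of rank 2 or the Zeus KO library of rank 3. Of all 11081 genes, 750 passed without the control library of rank 1 and 983 without that of rank 2. With the length trend removed and all libraries kept, 1 member was called, 7 passed the adjusted p and the median was 0.066. Of the 28 genes named by rule, 7 changed side when a single library was left out. The ranges were from -0.025 to 0.26 for RpII140, -0.086 to 0.25 for RpII215, -0.15 to 0.011 for RpII15, -0.21 to 0.27 for RpI12, -0.19 to 0.31 for TfIIA-S-2, -0.036 to 0.056 for TfIIS and -0.23 to 0.0031 for Taf12L. With the length trend removed, 48 of all 61 members kept their side. Of the 28 named by rule, 5 changed side: RpII15 (0.012), RpII215 (-0.022), Taf12L (0.048), Taf4 (-0.011) and TfIIA-S (0.040). Without both libraries that sloped down with length, TfIIS did (-0.061). None of these differences passed the adjusted p in any fit.

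No paired analysis was possible because the solved libraries carry no replicate number. With 3 libraries per group, the median standard error of a member's log2 fold change was 0.14, so small changes could not be seen. The differences between libraries that follow transcript length are larger in the long and the short members, and their cause was not tested.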
